A study of Mus musculus with 8 samples.

Results

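The 37 genes described here encode glucose transporters, the enzymes of glycolysis with the regulators of phosphofructokinase, the enzymes and transporters that handle pyruvate and lactate, and the enzymes of the pentose phosphate pathway. They were taken by gene symbol from a list of these pathways. The rule uses no measured value, but the list was chosen with earlier results of these data known. All 37 were found among the 18635 genes of the deposited RNA-seq table. RNA came from mouse bone marrow-derived macrophages (BMDMs) after 24 h in AE17-TCM, that is, medium taken from cultures of the mouse mesothelioma line AE17, and BMDMs treated so are called tumor-educated macrophages (TEMs). There were 4 samples of Phgdhfl/fl TEMs, from mice with both alleles of *Phgdh* floxed and no Cre, and 4 samples of Phgdhfl/fl Cx3cr1-Cre TEMs, which carry the same floxed alleles and 1 Cre knock-in allele at *Cx3cr1*. *Phgdh* encodes the enzyme that takes 3-phosphoglycerate out of glycolysis into serine synthesis. The marrow came from littermates on a C57BL/6 background aged 6 to 8 weeks. All 8 samples were in AE17-TCM, so that the comparison is between genotypes and not with untreated BMDMs, and the Cre allele and the loss of *Phgdh* cannot be told apart. The replicates were described as biologically independent, and which mice they came from was not given.

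Glycolysis turns glucose into pyruvate in a chain of cytosolic steps, and most steps can be run by one of several related enzymes encoded by separate genes. Phosphofructokinase is the main regulated step, and its activator fructose 2,6-bisphosphate is made and removed by a small family of bifunctional enzymes. The pentose phosphate pathway branches off at glucose 6-phosphate, with an oxidative branch that yields NADPH and a non-oxidative branch that exchanges sugar phosphates with glycolysis. Activated macrophages are known for high glucose use and for releasing lactate.

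Each library held between 38219563 and 47027420 counted reads. A value is given as a normalized count, the reads of a gene divided by the size factor of its sample. The normalized count of *Phgdh* was 119, 129, 117 and 104.9 in Phgdhfl/fl TEMs and 32.6, 35.3, 14.2 and 26.3 in Phgdhfl/fl Cx3cr1-Cre TEMs (log2 fold change -2.15, limma adjusted p = 5.1e-08, standard error 0.21). Reads of *Phgdh* were thus lower in every sample with the Cre, and were still counted there. Of the macrophage markers, 8 of 8 were present and 4 lower, with summed normalized counts of 987727 to 1076550 in Phgdhfl/fl TEMs and 974279 to 1049670 in Phgdhfl/fl Cx3cr1-Cre TEMs. No neutrophil marker of 6 was listed, and 3 of 5 T cell markers (*Cd3d*, *Cd3e* and *Cd3g*) and 3 of 7 mesothelioma or fibroblast markers (*Msln*, *Wt1* and *Krt19*) were not listed. The listed T cell markers summed to 22.9 to 32.5 and 34.3 to 45.0, the listed B cell markers to 197 to 253 and 131 to 167, and the mesothelioma or fibroblast markers to 24.8 to 31.0 and 20.8 to 45.7 in Phgdhfl/fl TEMs and Phgdhfl/fl Cx3cr1-Cre TEMs. Among these, 1 B cell marker was called lower and none was called higher. Replicates 1 and 4 of both genotypes lay apart from replicates 2 and 3 on the second principal component of all genes tested (13.2% of the variance), a split that the labels do not explain. Within replicates 1 and 4 and within replicates 2 and 3, the medians of the members' differences between genotypes were -0.057 and -0.073. All 24 members called below had the same sign in each, but they were called from these same samples. For the 21 of them whose groups did not overlap, no other sign was possible. The sums of the markers of other cell types lay far below the counts of most members, and their part in the differences was not tested.

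Transcripts of glycolysis such as *Pfkl*, *Eno1*, *Pkm* and *Ldha* had somewhat fewer reads in Phgdhfl/fl Cx3cr1-Cre TEMs (*Pkm* not under quantile normalization), while the hexokinases *Hk1* and *Hk3*, the transporter *Slc2a6*, the kinases *Pfkfb2* and *Pfkfb3* and the minor enolases *Eno2* and *Eno3* had more. Of the 37 members, 36 had a mean normalized count of 10 or more and were tested, and the exception was *Fbp1*. Of these 36, 17 were lower and 7 higher in Phgdhfl/fl Cx3cr1-Cre TEMs at a limma adjusted p under 0.05 over all 13629 genes tested, and 12 were neither. Without replicate 1 of Phgdhfl/fl Cx3cr1-Cre TEMs, 4 members were higher, since *Hk1*, *Pfkfb2* and *Eno2* lost the call. Over all genes tested, 20.3% were lower and 20.8% higher, so that the share of members that fell was above that of all genes and the share that rose was close to it. All samples of Phgdhfl/fl Cx3cr1-Cre TEMs lay below all of Phgdhfl/fl TEMs for 16 of the lower members and above them for 5 of the higher ones, where 18.2% and 18.4% of all genes tested had groups that did not overlap in these directions. The median log2 fold change of the 36 members was -0.066, and that of all genes tested was -0.0018. In bulk libraries, fewer cells that hold a transcript and less of it per cell cannot be told apart.

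The differences were small. Relative to the mean of Phgdhfl/fl TEMs, the median of the 36 members lay between -0.015 and 0.013 on the log2 scale in the 4 samples of Phgdhfl/fl TEMs and between -0.081 and -0.044 in the 4 samples of Phgdhfl/fl Cx3cr1-Cre TEMs. The furthest member was *Slc2a6* at a log2 fold change of 0.63, and no member passed an absolute log2 fold change of 1.5, which 0.404% of all genes tested did with an adjusted p under 0.05. The 29 tested members of glycolysis and lactate handling had a median of -0.088, with 13 lower and 7 higher. The 7 members of the pentose phosphate pathway had a median of -0.061, with 4 lower and 0 higher. For comparison, 20.3% of all genes tested were lower and 20.8% higher. Quantile normalization, which gives genes of equal rank the same value in every sample, turned the differences of *Pkm*, *Pgd* and *Taldo1* to just above 0.

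**Figure D1:**
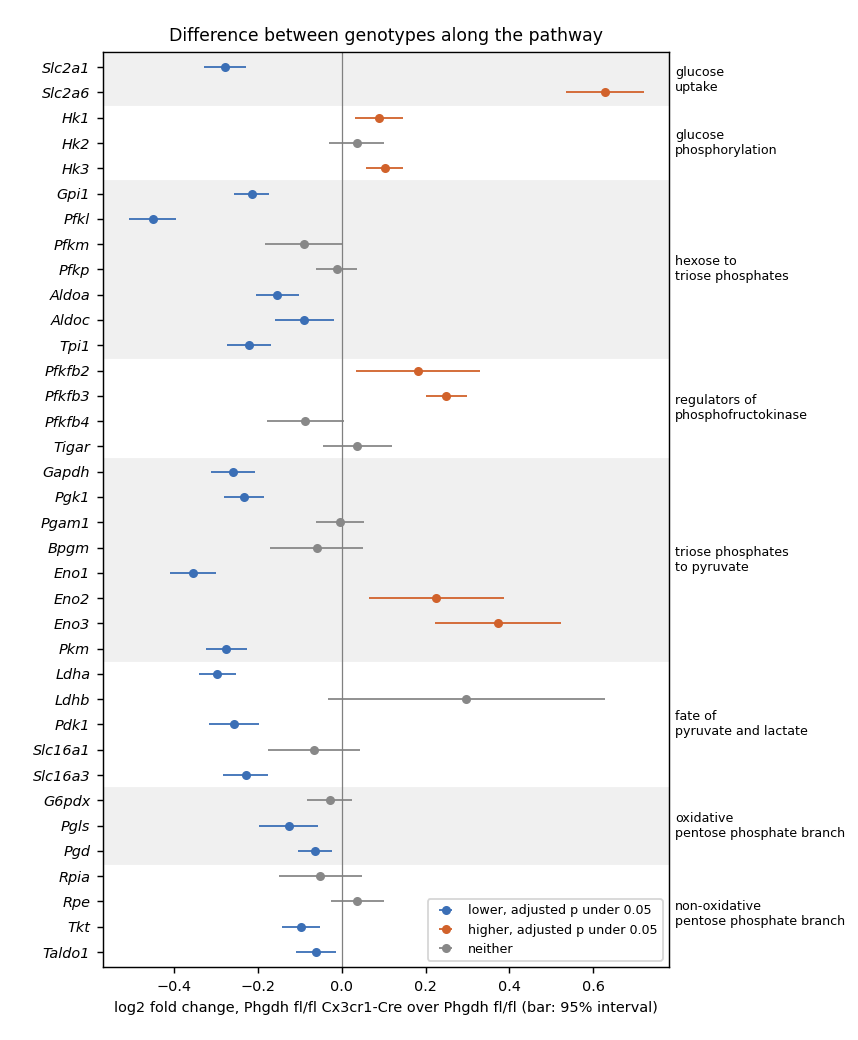
Log2 fold change of each of the 36 tested members, Phgdhfl/fl Cx3cr1-Cre TEMs over Phgdhfl/fl TEMs (horizontal axis), in the order of the pathway; bars are 95% intervals, blue marks members that fell, orange members that rose and grey those that were neither. The 17 blue points lie between -0.45 (*Pfkl*) and -0.061 (*Taldo1*) and the 7 orange points between 0.088 (*Hk1*) and 0.63 (*Slc2a6*). Under quantile normalization, which is not drawn here, *Pkm*, *Pgd* and *Taldo1* were just above 0.

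The promoter sequences of the members were searched for ACGTG on both strands, the core of the sites bound by hypoxia-inducible factors. They were also searched for CACGTG, the E-box bound by MYC and other factors, which reads the same on both strands and contains ACGTG. The windows were those that RefSeq annotation on GRCm38.p6, the same build as mm10, gives from 250 bases before to 50 after each transcript start. At least 1 window with ACGTG was found for 17 of the 37 members (45.9%) and for 21.8% of all 27025 genes. CACGTG was found for 5 members (13.5%) and for 8.09% of all genes. All genes here are those of the annotation, expressed in these cells or not. A gene with more windows has more chances of a match. Counted by single windows, ACGTG was in 39.6% of the 53 windows of members and in 19.6% of all 32851. CACGTG was in 9.43% and 7.15% of them. The members with ACGTG were 8 of the 17 that were lower, 4 of the 7 that were higher and 5 of the 12 that were neither, so that a match was found in members of either direction. *Slc2a6*, *Eno3*, *Pfkl* and *Eno1*, which are among the members with the largest differences, had no match in these windows.

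The sequences below are shown because *Pfkfb3* had the highest and *Ldha* the lowest log2 fold change among the called members with a match. The starts were picked by a match in their window, and which start these cells use is not known. Another window of *Ldha* had no ACGTG, and another of *Pfkfb3* had ACGTG but no CACGTG. Each sequence shown is the 250 bases before 1 of the starts listed for the gene, in the direction of transcription. Capitals mark CACGTG and the CACGT that is ACGTG read on the other strand. That of *Ldha* is chr7:46845554-46845803 on the plus strand, with CACGTG from 145 to 140 and from 48 to 43 bases before the start and CACGT from 34 to 30 bases before it. That of *Pfkfb3* is chr2:11502091-11502340 on the minus strand, with CACGTG from 53 to 48 bases before the start.
Ldha: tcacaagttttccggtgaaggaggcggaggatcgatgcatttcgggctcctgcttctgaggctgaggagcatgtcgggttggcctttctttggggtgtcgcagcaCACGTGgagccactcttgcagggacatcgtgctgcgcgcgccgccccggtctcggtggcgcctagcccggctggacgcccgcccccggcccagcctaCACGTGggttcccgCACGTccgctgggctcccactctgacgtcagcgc
Pfkfb3: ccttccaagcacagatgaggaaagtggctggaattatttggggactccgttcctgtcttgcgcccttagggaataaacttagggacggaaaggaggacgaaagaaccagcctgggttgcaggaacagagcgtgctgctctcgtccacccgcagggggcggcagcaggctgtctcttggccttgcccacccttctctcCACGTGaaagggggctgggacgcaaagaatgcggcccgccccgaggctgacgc

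The 2 members grouped here under glucose uptake parted more than those of any other step. *Slc2a1* (ENSMUSG00000028645, chromosome 4, 119108711-119137983) encodes GLUT1, the widespread glucose transporter of the cell surface. Its normalized count was 6933, 7046, 6975 and 7191 in Phgdhfl/fl TEMs and 5841, 5613, 5905 and 5852 in Phgdhfl/fl Cx3cr1-Cre TEMs. All 4 samples of Phgdhfl/fl Cx3cr1-Cre TEMs lay below all of Phgdhfl/fl TEMs, and *Slc2a1* fell by 0.28 on the log2 scale (standard error 0.024, limma adjusted p = 9.4e-09). *Slc2a6* (ENSMUSG00000036067, chromosome 2, 27021363-27027998) encodes GLUT6, a member of the same family found on intracellular membranes. Its samples held 997, 942, 909.7 and 905 normalized counts in Phgdhfl/fl TEMs and 1540.3, 1440.4, 1339 and 1482 in Phgdhfl/fl Cx3cr1-Cre TEMs. Here all samples of Phgdhfl/fl Cx3cr1-Cre TEMs were the higher ones, and *Slc2a6* rose by 0.63 (standard error 0.045, limma adjusted p = 4.5e-10), the largest difference of any member in either direction. Levels per kilobase of exon divide by the length of all annotated exons of a gene, with overlaps counted once. On this scale, *Slc2a6* made up 12.1% to 13.6% of the summed level of both transporters in Phgdhfl/fl TEMs and 19.8% to 22.4% in Phgdhfl/fl Cx3cr1-Cre TEMs. The sum itself went from 2299 ± 25.6 to 2107 ± 42.4 normalized counts per kilobase (SD, n = 4 each, as for all values given with ±), since the loss of *Slc2a1* was larger in counts than the gain of *Slc2a6*. *Slc2a3*, *Slc2a8* and *Slc2a9*, of the same family, were counted too but are not members and not in this sum. Uptake itself was not measured in these libraries.

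The hexokinases, which trap glucose in the cell as glucose 6-phosphate, were not lower. *Hk3*, the most abundant of them in these cells, rose slightly, from 21051, 20520.3, 20317 and 20613 in Phgdhfl/fl TEMs to 22536, 22027, 21698 and 22328 in Phgdhfl/fl Cx3cr1-Cre TEMs, with groups that did not overlap (log2 fold change 0.10, standard error 0.021, limma adjusted p = 5.3e-04). *Hk1* rose from 7473 ± 177 to 7946 ± 302 normalized counts (log2 fold change 0.088, limma adjusted p = 0.013), also without overlap, but lost the call without replicate 2 of Phgdhfl/fl TEMs or replicate 1 of Phgdhfl/fl Cx3cr1-Cre TEMs (adjusted p 0.058 to 0.068). *Hk2*, the form that is induced in many activated and tumor cells, did not pass the test at 3934 ± 143 and 4032 ± 157, with a 95% interval of its log2 fold change of -0.030 to 0.10. In level per kilobase, *Hk3* made up 78.1% to 78.8% of the hexokinase level in Phgdhfl/fl TEMs and 78.5% to 79.3% in Phgdhfl/fl Cx3cr1-Cre TEMs, so that the ranges of its share overlapped.

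Between glucose 6-phosphate and the triose phosphates, 5 of 7 members fell and none rose, where 20.3% of all genes tested fell and 20.8% rose. *Pfkl* (ENSMUSG00000020277, chromosome 10, 77986947-78010083), the liver-type phosphofructokinase, was the member that fell furthest. Its normalized count was 5013, 5324, 5066 and 5239.6 in Phgdhfl/fl TEMs and 3819.9, 3675, 3873 and 3719 in Phgdhfl/fl Cx3cr1-Cre TEMs. The highest sample of Phgdhfl/fl Cx3cr1-Cre TEMs lay well below the lowest of Phgdhfl/fl TEMs, at a ratio of means of 0.731 and a log2 fold change of -0.45 with a standard error of 0.027 (limma adjusted p = 3.4e-11). The other phosphofructokinase genes did not pass the test. The muscle-type *Pfkm* had 1218 ± 69.9 and 1143 ± 48.2 normalized counts (log2 fold change -0.091, 95% interval -0.18 to -0.00047, adjusted p = 0.10), and was called without replicate 1 of Phgdhfl/fl TEMs (adjusted p = 0.047). The platelet-type *Pfkp* had 7825 ± 50.5 and 7759.8 ± 206, with a 95% interval of -0.062 to 0.037 around a difference whose sign turned with scaling to total reads. In level per kilobase, *Pfkl* made up 44.4% to 45.5% of the phosphofructokinase genes in Phgdhfl/fl TEMs and 37.0% to 39.5% in Phgdhfl/fl Cx3cr1-Cre TEMs. The share of *Pfkp* was 32.8% to 34.7% in Phgdhfl/fl TEMs and 38.1% to 39.6% in Phgdhfl/fl Cx3cr1-Cre TEMs. For neither gene did the shares overlap between genotypes, and the summed level of the 3 genes was 0.863 times that of Phgdhfl/fl TEMs. The shares and this sum depend on the annotated exon lengths, 6675 bases for *Pfkl* and 13401 for *Pfkp*. By normalized count alone, *Pfkp* was above *Pfkl* in both genotypes.

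The other members of this stretch fell by less. *Gpi1*, which converts glucose 6-phosphate to fructose 6-phosphate, went from 27652 ± 307 to 23812 ± 308 normalized counts (log2 fold change -0.22, limma adjusted p = 3.4e-08). *Aldoa*, the main aldolase, went from 87607 ± 1833 to 78754 ± 2434 (log2 fold change -0.15, limma adjusted p = 3.7e-05), and it made up 98.0% to 98.2% of the aldolase level per kilobase in both genotypes. *Aldoc*, the aldolase best known from brain, went from 1894 ± 68.3 to 1779.7 ± 37.8 (log2 fold change -0.089, limma adjusted p = 0.037). *Aldoc* lost its call without some samples of either genotype (replicates 1 and 4 of Phgdhfl/fl TEMs, 1 and 3 of Phgdhfl/fl Cx3cr1-Cre TEMs, adjusted p 0.081 to 0.105), with scaling to total reads (0.085) and by DESeq2 (0.064). *Tpi1*, which interconverts the triose phosphates, went from 23347 ± 834 to 20021 ± 366 (log2 fold change -0.22, limma adjusted p = 4.3e-07). In all 5 members that fell, *Aldoc* included, the groups did not overlap.

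Where 20.8% of all genes tested rose and 20.3% fell, 2 of the 4 tested regulators of phosphofructokinase rose and none fell. *Pfkfb3* (ENSMUSG00000026773, chromosome 2, 11471433-11554077), whose enzyme mostly makes fructose 2,6-bisphosphate, was the clearest of these and is one of the genes whose promoter sequence is given above. Its normalized count was 5442, 5529, 5264 and 5351 in Phgdhfl/fl TEMs and 6320.0, 6419, 6497 and 6427 in Phgdhfl/fl Cx3cr1-Cre TEMs. All samples of Phgdhfl/fl Cx3cr1-Cre TEMs lay above all samples of Phgdhfl/fl TEMs (log2 fold change 0.25, standard error 0.024, limma adjusted p = 3.7e-08). *Pfkfb2* (ENSMUSG00000026409, chromosome 1, 130689182-130729253), of the same family, had far fewer reads, with 464, 471, 376 and 398 in Phgdhfl/fl TEMs and 468, 502, 450.4 and 512 in Phgdhfl/fl Cx3cr1-Cre TEMs. Its groups overlapped, with replicates 1 and 2 of Phgdhfl/fl TEMs within the range of Phgdhfl/fl Cx3cr1-Cre TEMs, and its adjusted p of 0.047 (log2 fold change 0.18) lay just under the threshold. It rose above 0.05 without replicates 3 or 4 of Phgdhfl/fl TEMs or 1, 2 or 4 of Phgdhfl/fl Cx3cr1-Cre TEMs (0.058 to 0.18), and with quantile normalization (0.063), edgeR (0.0502) and DESeq2 (0.068).

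*Pfkfb4* had 1537 ± 92.4 and 1446 ± 74.9 normalized counts and was not called (log2 fold change -0.088, 95% interval -0.18 to 0.0044), though it was without replicate 3 of Phgdhfl/fl TEMs (adjusted p = 0.041). The share of *Pfkfb3* in the level of the family per kilobase was 64.3% to 66.8% in Phgdhfl/fl TEMs and 69.3% to 71.2% in Phgdhfl/fl Cx3cr1-Cre TEMs. *Tigar*, whose enzyme removes fructose 2,6-bisphosphate, was at 1055 ± 42.0 and 1082 ± 22.8 (95% interval -0.045 to 0.12). *Fbp1*, the bisphosphatase that reverses the phosphofructokinase step in liver and kidney, was near the limit of detection with 0 to 5 reads per sample and was not tested.

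**Figure D2:**
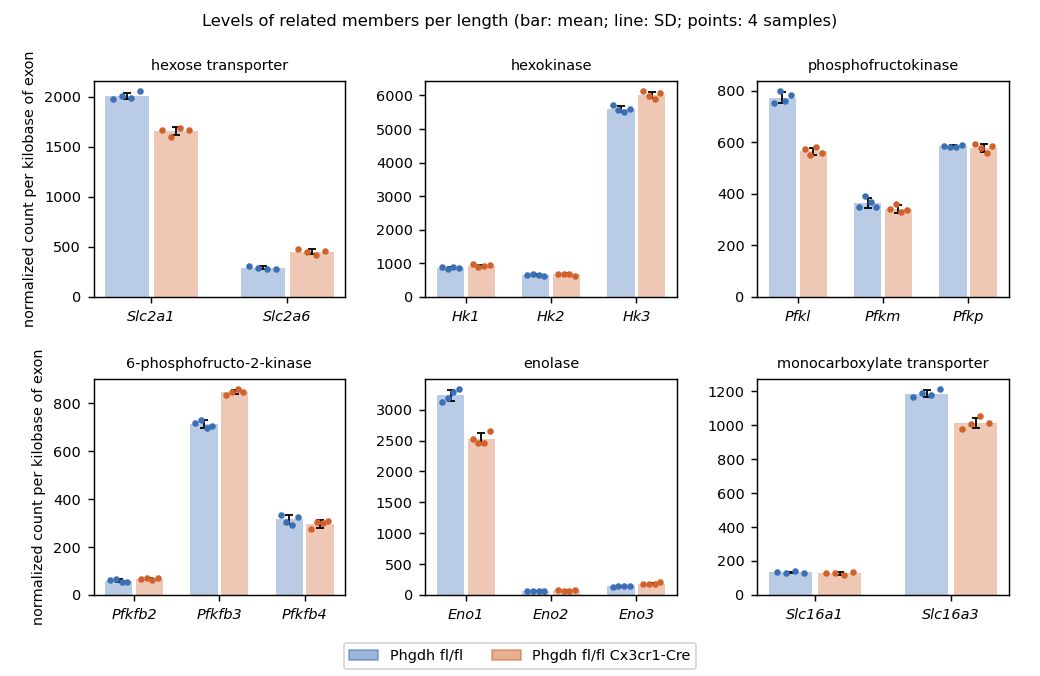
Levels of related members in normalized counts per kilobase of exon (vertical axes from 0) for 6 groups of genes; bars are means, lines are SD and points are the 4 samples of Phgdhfl/fl TEMs (blue) and of Phgdhfl/fl Cx3cr1-Cre TEMs (orange). *Slc2a1*, *Pfkl*, *Eno1* and *Slc16a3* are lower and *Slc2a6*, *Pfkfb3* and *Hk3* higher in Phgdhfl/fl Cx3cr1-Cre TEMs, and *Eno3* at 142 and 184 per kilobase stays far under *Eno1* at 3235 and 2529.

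From the triose phosphates to pyruvate, 4 of 8 members fell and 2 rose, where 20.3% of all genes tested fell and 20.8% rose. The share of members that rose was thus near that of all genes. *Gapdh* (ENSMUSG00000057666, chromosome 6, 125161715-125166467), the glyceraldehyde phosphate dehydrogenase that is often used as a reference gene, was not level between genotypes. Its normalized count was 20759, 21846, 22311 and 22318 in Phgdhfl/fl TEMs and 18665, 17856, 18519.5 and 17818 in Phgdhfl/fl Cx3cr1-Cre TEMs. The groups did not overlap, and *Gapdh* fell by 0.26 on the log2 scale (standard error 0.025, limma adjusted p = 5.2e-08). Of the windows of 75 bases in its transcripts, 22.6% also occur in transcripts of other annotated genes, nearly all in *Gm7336* among others. Their sequence alone does not place reads there, and how such reads were counted is not given. *Gm7336* itself was counted at 1.87 in Phgdhfl/fl TEMs and 2.08 in Phgdhfl/fl Cx3cr1-Cre TEMs on average. *Pgk1*, which makes 3-phosphoglycerate and the first ATP of the pathway, went from 15347 ± 313 to 13053 ± 256 (log2 fold change -0.23, limma adjusted p = 4.7e-08). As 52.8% of its windows also occur in *Pgk1-rs7* and other genes, its counts are less certain than those of the other members.

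*Pgam1*, which acts on 3-phosphoglycerate, the metabolite that PHGDH draws on, was at 4084 ± 49.6 and 4074 ± 150.4 normalized counts (SD, n = 4 each). Its 95% interval was -0.063 to 0.054, its sign turned with scaling to total reads, and 34.9% of its windows are shared with *Pgam1-ps2*. *Bpgm*, which makes 2,3-bisphosphoglycerate, was at 465 ± 7.31 and 446 ± 15.7 (95% interval -0.17 to 0.052). Neither gene passed the test.

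The enolases, which turn 2-phosphoglycerate into phosphoenolpyruvate, moved in opposite directions. *Eno1* (ENSMUSG00000063524, chromosome 4, 150236721-150248879), the form of most tissues, had normalized counts of 16843, 17156, 17688 and 17911 in Phgdhfl/fl TEMs and 13603, 13248, 13274 and 14284 in Phgdhfl/fl Cx3cr1-Cre TEMs. No samples of the genotypes overlapped (log2 fold change -0.36, standard error 0.026, limma adjusted p = 8.4e-10). About 23.0% of its windows also occur in other genes, mostly *Eno1b*, which itself was counted at 1.39 and 1.00 on average. *Eno3* (ENSMUSG00000060600, chromosome 11, 70657202-70662513), the muscle form, was at 233, 241, 249 and 263 in Phgdhfl/fl TEMs and 314, 316, 299 and 351 in Phgdhfl/fl Cx3cr1-Cre TEMs. It was higher in all samples of Phgdhfl/fl Cx3cr1-Cre TEMs (log2 fold change 0.37, standard error 0.072, limma adjusted p = 2.7e-04) and shares no window with another gene. *Eno2* (ENSMUSG00000004267, chromosome 6, 124760053-124769673), the neuronal form, was at 298, 322, 314 and 271 in Phgdhfl/fl TEMs and 398, 318, 332 and 364 in Phgdhfl/fl Cx3cr1-Cre TEMs. Replicate 2 of Phgdhfl/fl Cx3cr1-Cre TEMs lay among the samples of Phgdhfl/fl TEMs, and the difference (log2 fold change 0.23, standard error 0.077, limma adjusted p = 0.024) was no longer called without replicate 4 of Phgdhfl/fl TEMs or 1 or 4 of Phgdhfl/fl Cx3cr1-Cre TEMs (adjusted p 0.066 to 0.108).

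The rise of the minor enolases was small against the fall of *Eno1*. Per kilobase of exon, *Eno1* differed by -706 and *Eno3* by 42.1 normalized counts, and the summed level of the 3 genes in Phgdhfl/fl Cx3cr1-Cre TEMs was 0.810 times that of Phgdhfl/fl TEMs. The share of *Eno1* was 93.9% to 94.1% in Phgdhfl/fl TEMs and 90.5% to 91.1% in Phgdhfl/fl Cx3cr1-Cre TEMs, and that of *Eno3* 4.03% to 4.28% and 6.34% to 6.88%, so that neither overlapped.

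*Pkm* (ENSMUSG00000032294, chromosome 9, 59656368-59679375) encodes the pyruvate kinase of the last step of glycolysis and was the member with the most reads. Its normalized count was 137798, 138975, 139166 and 137182 in Phgdhfl/fl TEMs and 116903, 110205, 113686 and 116265 in Phgdhfl/fl Cx3cr1-Cre TEMs. The groups were well apart (log2 fold change -0.28, standard error 0.024, limma adjusted p = 7.4e-09), but under quantile normalization the log2 fold change was 0.0084 (adjusted p = 0.73), since *Pkm* ranked 22nd to 24th by level in every sample. Its isoforms were not separated by the counting. Of its windows, 17.8% also occur in 3 other genes, with 10.6% in *Gm49759*, which was counted at 3990 and 4046 on average.

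For the fate of pyruvate, 3 of 5 members fell and none rose, where 20.3% of all genes tested fell and 20.8% rose. *Ldha* (ENSMUSG00000063229, chromosome 7, 46841475-46855627), which reduces pyruvate to lactate and whose promoter sequence is given above, had normalized counts of 37561, 38911, 38838 and 38836 in Phgdhfl/fl TEMs and 31315, 31005, 31846 and 31249 in Phgdhfl/fl Cx3cr1-Cre TEMs. All samples of Phgdhfl/fl Cx3cr1-Cre TEMs lay below all of Phgdhfl/fl TEMs (log2 fold change -0.30, standard error 0.021, limma adjusted p = 3.8e-10). *Ldhb*, whose enzyme favors the return of lactate to pyruvate, had only 41 to 67 reads per sample, and its log2 fold change of 0.30 was not called (95% interval -0.034 to 0.63, adjusted p = 0.15). *Ldha* made up, per kilobase, 99.5% or more of both in every sample. *Pdk1*, a kinase that holds back pyruvate dehydrogenase, went from 6251 ± 127 to 5233 ± 233 (log2 fold change -0.26, limma adjusted p = 4.2e-07).

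Of the transporters of lactate and pyruvate, the one with the higher level per kilobase fell. *Slc16a3*, which encodes the lactate exporter MCT4, went from 6314 ± 106 to 5386 ± 165 normalized counts (SD, n = 4 each) (log2 fold change -0.23, limma adjusted p = 3.8e-07), with groups that did not overlap. *Slc16a1*, which encodes MCT1, was at 589 ± 19.5 and 562 ± 31.8 (95% interval -0.18 to 0.043). Whether *Slc16a1* and *Slc16a3* differ from each other in response was not tested.

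**Figure D3:**
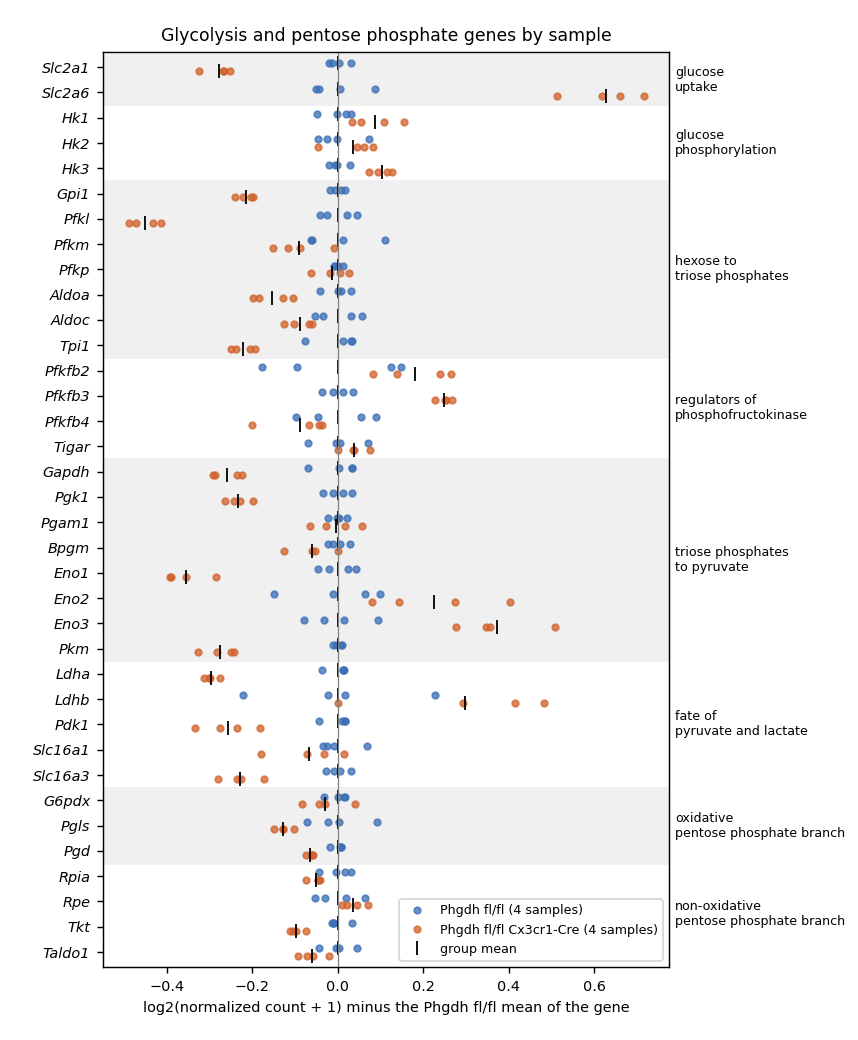
Each point is 1 sample of Phgdhfl/fl TEMs (blue) or Phgdhfl/fl Cx3cr1-Cre TEMs (orange), as log2(normalized count + 1) minus the mean of Phgdhfl/fl TEMs for that gene (horizontal axis), and black ticks are group means. The samples of Phgdhfl/fl Cx3cr1-Cre TEMs stand clear of those of Phgdhfl/fl TEMs on the left for *Pfkl*, *Eno1*, *Ldha*, *Slc2a1* and *Pkm*, and on the right for *Slc2a6*, *Eno3* and *Pfkfb3*, whereas they overlap for *Pfkfb2* and *Eno2*. Under quantile normalization, which is not drawn here, *Pkm* was just above 0.

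In the pentose phosphate pathway no difference was larger than that of *Pgls*, at a log2 fold change of -0.13. In the oxidative branch, *G6pdx*, the entry enzyme, was at 8975 ± 142 and 8797 ± 316 normalized counts and was not called (95% interval -0.083 to 0.024). *Pgls*, which opens the lactone, fell from 2171 ± 103 to 1987 ± 25.7 (log2 fold change -0.13, limma adjusted p = 0.0046). *Pgd*, which yields NADPH and ribulose 5-phosphate, went from 39570.1 ± 325 to 37853 ± 198 (log2 fold change -0.064, limma adjusted p = 0.013), a small difference without overlap. Its call was lost with scaling to total reads (adjusted p = 0.0546), and quantile normalization gave 0.0014 (adjusted p = 0.95).

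In the non-oxidative branch, 2 of 4 members fell, where 20.3% of all genes tested did. These 2, *Tkt* and *Taldo1*, had mean normalized counts of 10000 or more, and 44.6% of the genes with as many reads fell. *Tkt*, the transketolase, went from 12374 ± 197 to 11567 ± 128 normalized counts (log2 fold change -0.10, limma adjusted p = 9.5e-04), with groups that did not overlap. *Taldo1*, the transaldolase, went from 25419 ± 636 to 24358 ± 521 (log2 fold change -0.061, limma adjusted p = 0.039), and the groups overlapped. That call held in fewer of the alternatives than that of any other lower member, since it was lost without replicates 2, 3 or 4 of Phgdhfl/fl TEMs or 1, 2 or 3 of Phgdhfl/fl Cx3cr1-Cre TEMs (adjusted p 0.065 to 0.146) and with scaling to total reads (0.114), and turned to 0.0067 under quantile normalization. *Rpia*, an isomerase of ribose 5-phosphate, was at 575 ± 12.8 and 555 ± 5.65 (95% interval -0.15 to 0.047), and *Rpe*, the epimerase, at 2632 ± 94.6 and 2698 ± 49.6 (95% interval -0.027 to 0.10).

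The members with the most reads were mostly lower. Grouped by mean normalized count over the 8 samples, with limits set after the values were seen, 11 of the 12 members at 10000 or more were lower and 1, *Hk3*, was higher. Of the 731 genes tested with as many reads, 44.6% were lower and 26.4% higher, so that the background of lower calls was itself above that of all genes. Of the 17 members from 1000 to 10000, 6 were lower and 3 higher, where 27.6% and 27.5% of genes were. Of the 7 members below 1000, 0 were lower and 3 higher (*Pfkfb2*, *Eno2* and *Eno3*), where 12.3% and 15.1% of genes were. The medians of the members were -0.22, -0.029 and 0.18 from the highest class to the lowest, and those of all genes -0.039, -0.0051 and 0.0057. Under quantile normalization 3 members of the highest class, *Pkm*, *Pgd* and *Taldo1*, were just above 0. The part that read depth per gene plays in these differences was not tested.

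**Figure D4:**
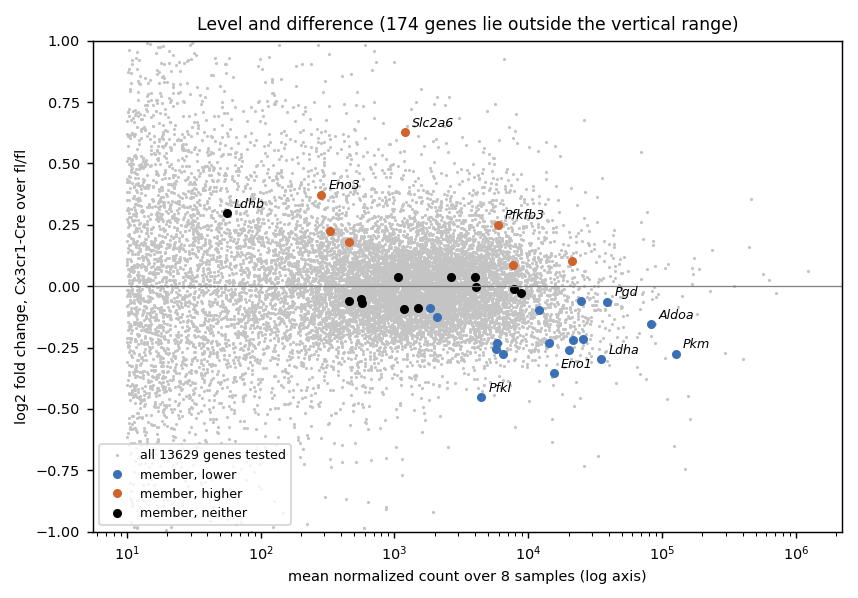
Log2 fold change of Phgdhfl/fl Cx3cr1-Cre TEMs over Phgdhfl/fl TEMs (vertical axis) against the mean normalized count over 8 samples (horizontal log axis) for 13629 genes in grey, with members that fell in blue, members that rose in orange and the others in black; 174 genes lie outside the vertical range. Of the 12 members at 10000 or more, 11 are blue, and none of the 7 below 1000 is. Under quantile normalization, which is not drawn here, *Pkm*, *Pgd* and *Taldo1* were just above 0.

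Per kilobase of exon, the highest members in Phgdhfl/fl TEMs were *Aldoa* at 30095, *Pkm* at 27651, *Taldo1* at 11709, *Ldha* at 11643 and *Tpi1* at 8481 normalized counts. All 5 were lower in Phgdhfl/fl Cx3cr1-Cre TEMs, *Pkm* and *Taldo1* not under quantile normalization. The lowest were *Ldhb* at 31.8 and *Fbp1* at 1.26. This order depends on the annotated exon lengths, which were 2171 bases for *Taldo1*, 6447 for *Pgd* and 6452 for *Gpi1*. By normalized count alone, *Pgd* (39570) and *Gpi1* (27652) were above *Taldo1* (25419) in Phgdhfl/fl TEMs.

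Other genes around these pathways, taken from a list of 43 that holds none of the members, were lower and higher in like numbers. Of these, 31 were in the table and 29 tested, with 8 lower, 7 higher and 14 neither and a median log2 fold change of 0.038. Both shares were near those of all genes tested, of which 20.3% were lower and 20.8% higher. Among those that passed the test, the highest was *Mpc1*, a subunit of the mitochondrial pyruvate carrier, which rose from 451, 468, 396 and 368 in Phgdhfl/fl TEMs to 666, 627, 624 and 593 in Phgdhfl/fl Cx3cr1-Cre TEMs (log2 fold change 0.58, limma adjusted p = 6.2e-07), without overlap. Next were *Pgm2l1*, a synthase of glucose 1,6-bisphosphate (log2 fold change 0.20, limma adjusted p = 2.6e-05), and *Gpd2*, the mitochondrial glycerol 3-phosphate dehydrogenase (log2 fold change 0.20, limma adjusted p = 1.1e-04). The lowest that passed were *Pgm1*, the phosphoglucomutase that links glycogen to glycolysis (log2 fold change -0.21, limma adjusted p = 2.4e-06), *Khk*, the fructokinase (log2 fold change -0.21, limma adjusted p = 0.0034), and *Adpgk*, a kinase of glucose that uses ADP (log2 fold change -0.20, limma adjusted p = 3.2e-05).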

How the data were processed

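The authors mapped single-end reads to mm10 with TopHat2, counted them per gene with HTSeq 0.6 and ran DESeq2, per the submitters' processing notes and the methods. The values deposited for each sample are a signal per gene, in which the count of reads was divided by the sample's size factor (0.889 to 1.09), although the methods speak of FPKM. Whole reads were recovered for 100% of the 144353 values above 0, within 0.05 of a read. Further deposited columns hold the authors' own comparison, with a log2 fold change and its error, a score (the Wald statistic), a p-value and an adjusted p-value, and were not used. The libraries were stranded, but the strand setting of the counting is not given in the sources used here, so that a read where genes overlap or run antisense may stand at either of them.

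The genotypes, grouped by the labels, were compared on log2(normalized count + 1), a scale that understates fold changes where reads are few, by linear models with moderated errors and a trend (limma 3.58.1, R 4.3.3). Tests were two-sided, with no covariate, and p-values were adjusted after Benjamini and Hochberg over the 13629 genes whose normalized counts averaged 10 or more. Fold changes are Phgdhfl/fl Cx3cr1-Cre TEMs over Phgdhfl/fl TEMs. Errors are SD over 4 samples, and with few reads counting limits the precision. For a single gene, 4 samples against 4 allow 70 labelings and an exact two-sided permutation p of 0.0286 at the smallest.

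The members and lists were chosen with earlier results of these data known. Named were all members by pathway step, with the values of each sample for the 5 highest and 5 lowest called log2 fold changes, *Gapdh* and *Phgdh*, and, of the other pathway genes, the 3 highest and 3 lowest called. Positions, exon lengths and shared windows of 75 bases, the read length, came from GENCODE M21 (GRCm38, the build of mm10), which held 18629 of the 18635 genes, and promoters from RefSeq on GRCm38.p6, where all 37 members matched. Among members whose shared windows are not given above, the largest shares were 18.1% for *Pgls*, 16.2% for *Pfkfb2* and 14.2% for *Rpe*. Next came *Ldhb* (12.6%), *Gpi1* (10.8%) and *G6pdx* (10.6%, mostly with *Ikbkg*). Alternatives were a pseudocount of 0.1, no filter, scaling to total reads, quantile normalization, a replicate block, leaving out each sample, a term for replicates 1 and 4 against 2 and 3 (chosen after seeing the data), edgeR 4.0.16 (quasi-likelihood, TMM) and DESeq2 1.42.0 on the recovered reads. The fits were tested on simulated data. The result of 1 marker gene is not reported here.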

Additional observations from a re-analysis of the deposited data

Results flagged for a closer look

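Among the 76 pairs of a gene and a genotype looked at, 4 had 1 sample that stood apart from the other 3 by the Dixon criterion, which chance alone meets in about 1 of 20. Replicate 1 of Phgdhfl/fl TEMs was low for *Ldha* at 37561 normalized counts, where the others lay between 38836 and 38911, and for *Pdk1* at 6062, where the others lay between 6294 and 6327. Replicate 4 of Phgdhfl/fl TEMs was low for *Pgd* at 39084, with the others between 39697 and 39753, and high for *Tkt* at 12668, with the others between 12251 and 12303. For all 4 genes the sample that stood apart was still above all samples of Phgdhfl/fl Cx3cr1-Cre TEMs, and the call held without it.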

How the results depend on the processing

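Of the 24 members called, 17 (13 lower and 4 higher) were called in the same direction in all 16 alternatives. Of the 12 others, 2 were called in at least 1. Across the alternatives 14 to 17 members were lower, with 14 under scaling to total reads and under quantile normalization. With single samples left out, 15 to 17 were lower and 4 to 7 higher, the 4 without replicate 1 of Phgdhfl/fl Cx3cr1-Cre TEMs, where *Hk1*, *Pfkfb2* and *Eno2* were no longer called. The median of the members, -0.066, then lay between -0.081 (without replicate 4 of Phgdhfl/fl Cx3cr1-Cre TEMs) and -0.064, and with scaling to total reads it was -0.051, where the median of all genes tested moved from -0.0018 to 0.013. By the construction of quantile normalization, genes of stable rank come out level, and *Pkm* (0.0084), *Pgd* (0.0014) and *Taldo1* (0.0067) turned above 0 under it. Scaling to total reads turned *Pfkp* (0.0026) and *Pgam1* (0.011). With single samples left out, *Pfkp* lay between -0.026 and 0.0043 (the highest without replicate 3 of Phgdhfl/fl Cx3cr1-Cre TEMs) and *Pgam1* between -0.025 and 0.016 (above 0 without replicate 4 of Phgdhfl/fl TEMs or 1 or 2 of Phgdhfl/fl Cx3cr1-Cre TEMs). EdgeR gave 17 lower and 6 higher members, DESeq2 16 and 6. Samples of the same number correlated at 0.0628, 0.0977, 0.126 and 0.0776 in their deviations from the group means, and replicate 1 of Phgdhfl/fl TEMs correlated best with replicate 4 of Phgdhfl/fl Cx3cr1-Cre TEMs, so that not every pair was above 0.1 and the number alone does not pair the samples. Correlations between genotypes were positive for all 8 pairs within replicates 1 and 4 or within 2 and 3 (0.0484 to 0.135) and negative for all 8 pairs across them (-0.124 to -0.0356). A term for this split, chosen after seeing the data, gave 17 lower and 7 higher members, the same median and 5642 genes called, and changed no member's call. With a replicate block, 17 members were lower and 7 higher and the median was -0.066, and 5597 genes were called in place of 5594. Depth limits *Fbp1* and *Ldhb*, for which few reads were counted.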
